A study of Aptenodytes patagonicus with 7 samples.

Results

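Integrins are receptors of the cell surface, each built from an alpha and a beta chain, that tie the matrix outside the cell to the actin skeleton inside it. Laminins are trimers of an alpha, a beta and a gamma chain and form the sheet of the basement membrane that wraps each muscle fibre, vessel and nerve. In adult skeletal muscle of mammals, the fibre is surrounded mainly by the laminin of LAMA2, LAMB1 and LAMC1, and the receptors that hold it are the integrin of ITGA7 and ITGB1 and the dystroglycan complex.

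The genes described here were chosen by name, among probe sets with a single symbol in the array annotation. The symbol begins with ITGA and a digit, V or E, with ITGB and a digit, or with LAMA, LAMB or LAMC and a digit. Integrin alpha chains with any other letter after ITGA were not taken. Each gene is represented by the probe set with the highest mean over the birds. This rule found 30 genes among 12920 genes with a symbol. They were 16 integrin chains, 11 laminin chains and 3 genes that carry an integrin in their name but are not chains of it (ITGB1BP1, ITGB1BP3 and ITGB3BP). Together they had 62 of the 36897 probe sets. No probe set carried the integrin alpha chain ITGA5 as its single symbol, so ITGA5 is not among the 30 genes. No probe, promoter or protein sequence of these genes was among the sources used here, so none is printed.

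The samples were pectoralis biopsies of juvenile king penguins (Aptenodytes patagonicus), the muscle of the wing stroke, 1 chicken array per bird. The sea-acclimated (SA) group held 3 birds, 2 females and 1 male, that had finished their acclimation to life at sea. The never-immersed (NI) group held 4 birds, 3 females and 1 male, caught before they first entered cold water. The birds of the groups were different animals, and each was captured in the field, so every comparison is between birds and not within them. Values are log2 intensities of a single chicken probe per probe set, hybridised with penguin RNA. A chicken probe may match the penguin transcript poorly, so levels of different probe sets were not read as relative amounts of their transcripts. Levels were compared only to choose the brightest probe set of a gene and to place probe sets within the range of the array. The median log2 intensity was between 8.58 and 8.59 on every array. The mean of 8 skeletal muscle fibre genes (among them TTN, NEB and TNNT3) lay between 13.7 and 14.0 in SA birds and between 13.7 and 13.9 in NI birds, beside an array median near 8.58. Of them, ACTA1 had the highest value of the array, 15.27, in every bird, so that no difference in it could be measured. TNNT3 and MB were also near the top, with tied values in NI birds 2, 3 and 4 (14.885 and 14.559). Whether these 2 could register a difference was not tested.

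LAMB1, the laminin beta chain of the muscle fibre sheet, was the single member called between SA and NI, and it was lower in SA. Directions follow the sample labels. The study's text gives the larger set of called genes as the higher one after acclimation, which is the opposite of the labels, whereas the array values in its table of genes tested by qPCR have the sign given by the labels for most, though not all, of the probe sets matched here. No member was called higher. A call is an adjusted p under 0.10 from limma, a linear model with moderated variances fitted over all probe sets. Of the brightest probe sets of all 12920 genes, 0.967% were called lower and 0.58% higher, and of all 36897 probe sets 0.65% were called lower and 0.417% higher. At these shares, 1 call among 30 genes is near the background of the array. At an unadjusted p under 0.05 from the same model, 3 members were lower (LAMB1, ITGB1 and LAMC1) and 0 were higher, beside 6.66% lower and 5.79% higher over all genes. In 2 members, LAMB1 and ITGB1, every SA bird lay below every NI bird, and in none did every SA bird lie above. Over all genes, 5.93% had every SA bird below and 5.6% had every SA bird above. The median SA minus NI difference was -0.06 log2 units in the 16 integrin chains (range -0.58 to 0.36) and -0.04 in the 11 laminin chains (range -0.96 to 0.38), beside 0.00 over all genes. With 1 bird left out, the median lay between -0.080 (without SA bird 3) and -0.011 (without SA bird 1) for the integrins, and between -0.13 (without SA bird 1) and 0.029 (without SA bird 3) for the laminins. A negative difference was found in 9 of the integrin chains and 7 of the laminin chains. The probe sets of ITGA2, ITGA8, ITGB2, ITGB5, ITGB6 and LAMA5 were among the dimmest 25% of the array. Their mean log2 intensities lay between 6.96 (ITGA2) and 7.66 (LAMA5), where the lowest value of the array was 6.44. Whether probes so dim register a difference was not tested.

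**Figure D1:**
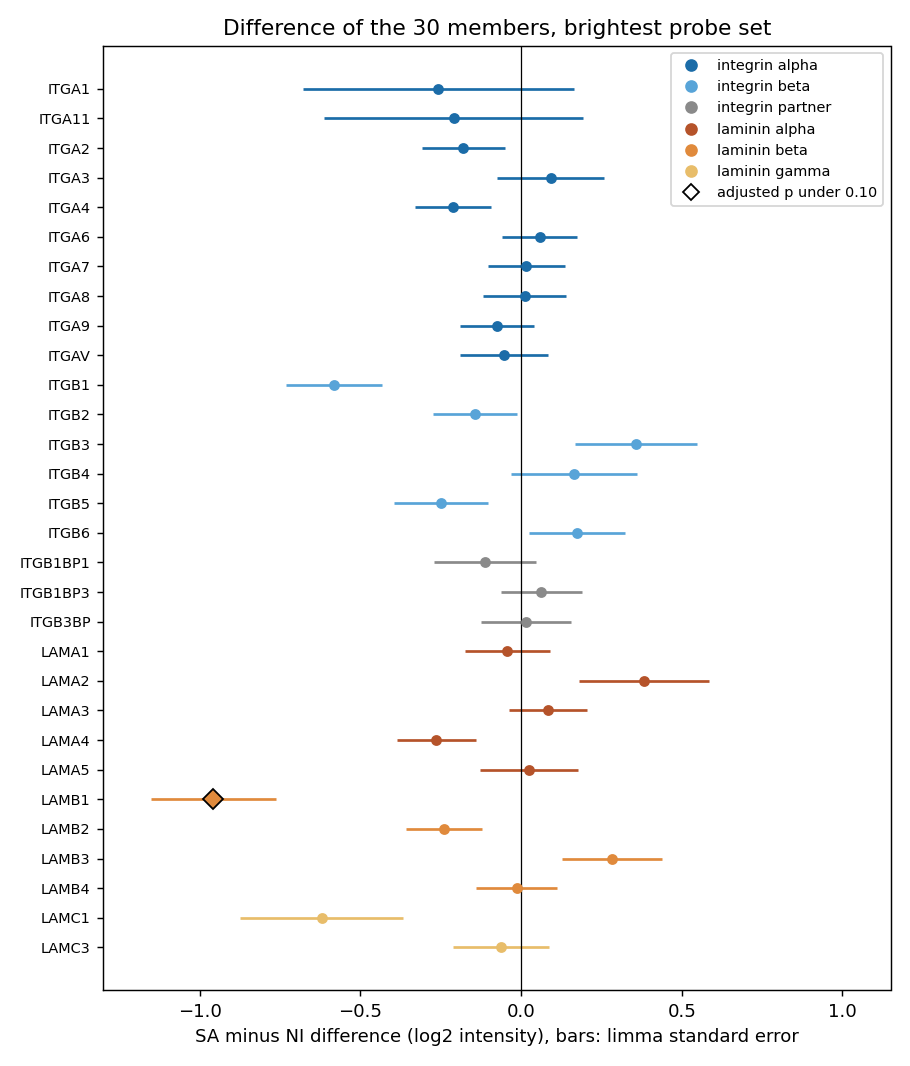
SA minus NI difference in log2 intensity of the 30 members (x axis), each by its brightest probe set, with the limma standard error as bars and colours for the kind of chain. LAMB1 (-0.96, diamond) is the member with an adjusted p under 0.10, and LAMC1 (-0.62) and ITGB1 (-0.58) are the next lowest.

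LAMB1 had log2 intensities of 9.06, 9.17 and 9.56 in the 3 SA birds, against 10.47, 10.22, 10.43 and 9.76 in the 4 NI birds. The groups did not overlap, and the birds closest to each other were SA bird 3 and NI bird 4, which are the males. LAMB1 averaged 9.26 ± 0.26 (SD, n = 3) in SA and 10.22 ± 0.33 (SD, n = 4) in NI. Its SA minus NI difference was -0.96 (standard error 0.19, limma adjusted p = 0.0835), a 1.94-fold lower intensity in SA. Among the 35 ways to divide the birds, the exact permutation p of LAMB1 was 0.0571 (two-sided), where 0.0286 is the smallest possible. With 1 bird left out at a time, LAMB1 was called in 1 of 7 fits, that without NI bird 4, and its adjusted p by limma was between 0.125 and 0.232 in the other 6 fits, with differences between -1.11 and -0.86 over the 7 fits. It was also lost with sex as a covariate (difference -0.95, limma adjusted p = 0.121).

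The other probe set of LAMB1 gave a different answer. Its SA minus NI difference was -0.01 (standard error 0.13, limma adjusted p = 0.992), with 8.04 ± 0.072 (SD, n = 3) in SA and 8.04 ± 0.21 (SD, n = 4) in NI. With the mean of all probe sets standing for each gene, LAMB1 lay at -0.48 (limma adjusted p = 0.205) and was not called.

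LAMC1 encodes the gamma chain shared by most laminins, LAMB1 trimers included. Its log2 intensity was 11.60, 11.23 and 12.03 in the 3 SA birds, against 12.51, 12.15, 12.62 and 11.67 in the 4 NI birds. The groups overlapped, because SA bird 3 was above NI bird 4, the same birds that lay closest in LAMB1. The SA minus NI difference of LAMC1 was -0.62 (standard error 0.25, limma adjusted p = 0.421), and its spread between birds of a group was wider than that of 93.4% of all probe sets. The other probe sets of LAMC1 lay at -0.01 and -0.08 and did not pass.

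LAMA2, the alpha chain of the fibre sheet, whose loss causes a muscular dystrophy in humans and mice, had a difference of the opposite sign to LAMB1, which did not pass. It had log2 intensities of 11.79, 10.85 and 11.28 in SA, against 11.12, 10.80, 10.95 and 10.82 in NI. SA birds 1 and 3 were above all NI birds and SA bird 2 was among them, with a difference of 0.38 (standard error 0.20, limma adjusted p = 0.582, 95% interval -0.07 to 0.84). Of its 4 dimmer probe sets, 1 had every SA bird above every NI bird (0.38, limma adjusted p = 0.382), and the others lay at 0.08, -0.17 and -0.03.

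LAMA4, a laminin alpha chain of vessels, nerves and other tissue around the fibres, was the second member with a called probe set, but not by its brightest one. The brightest had 10.10, 9.84 and 9.75 in SA, against 10.27, 10.05, 10.14 and 10.18 in NI, a difference of -0.26 (standard error 0.12, limma adjusted p = 0.503). SA bird 1 lay above NI bird 2, and SA birds 2 and 3 were below all NI birds. The dimmer one had 7.75, 7.62 and 8.02 in SA, against 9.77, 9.14, 9.07 and 8.65 in NI. These groups lay apart, and the difference was -1.36 (standard error 0.23, limma adjusted p = 0.0488, exact two-sided permutation p = 0.0286). This probe set stayed called in 4 of the 7 fits that left out a bird, the exceptions being those without NI bird 2 (adjusted p = 0.149), SA bird 2 (0.15) and SA bird 3 (0.119). It was singled out after its values were seen, and both probe sets of LAMA4 had the same sign.

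**Figure D2:**
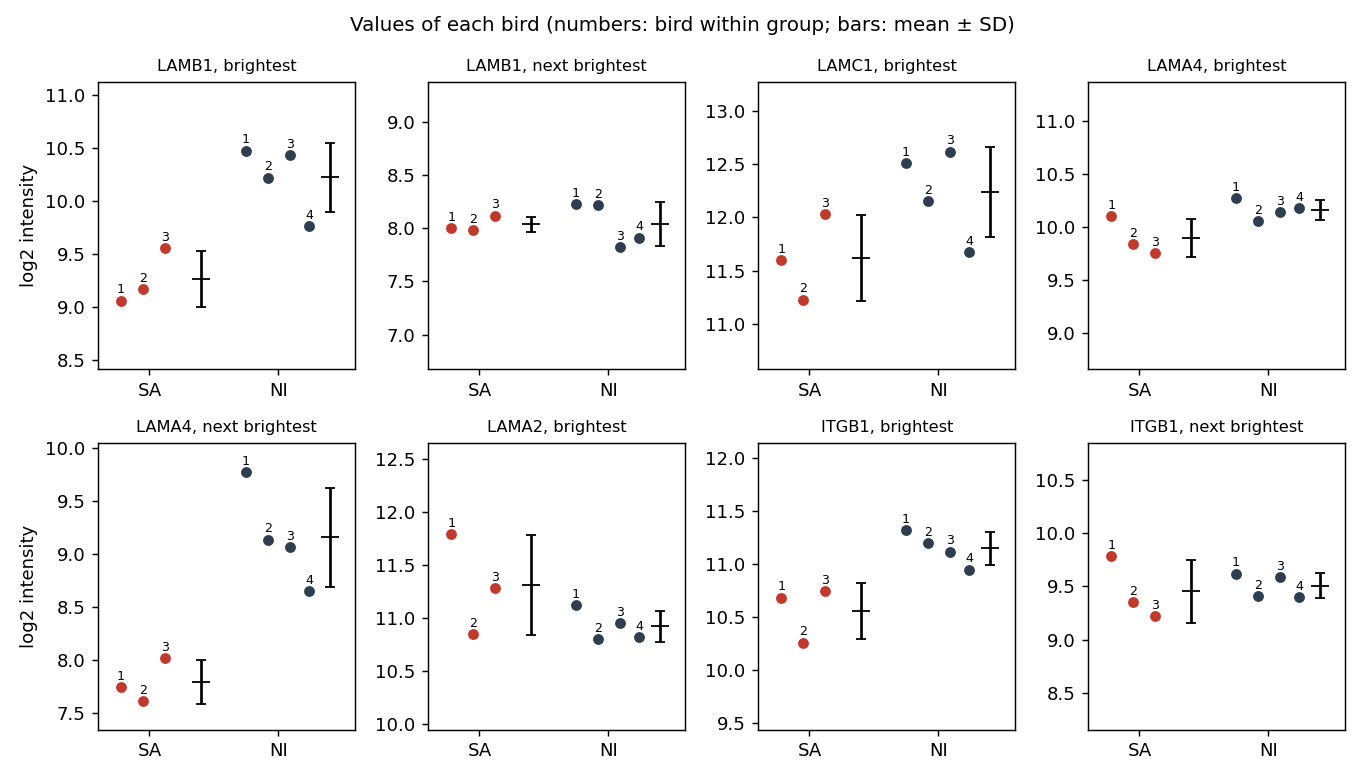
Log2 intensity (y axis, all panels of equal height) of each SA bird (red, left) and NI bird (dark, right) for probe sets of LAMB1, LAMC1, LAMA4, LAMA2 and ITGB1, with the number of the bird and the mean ± SD of each group. The groups lie apart for the brightest probe sets of LAMB1 and ITGB1 and for the dimmer one of LAMA4, and overlap in the others shown.

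The differences of the remaining laminin chains lay between -0.24 and 0.28 log2 units. LAMB2, which in mammals is the beta chain of the neuromuscular junction, had 11.01, 11.22 and 10.93 in SA, against 11.36, 11.34, 11.16 and 11.33 in NI. Only SA bird 2 reached into the NI range, above NI bird 3, and the difference was -0.24 (standard error 0.12, limma adjusted p = 0.536). The dimmer probe set of LAMB2 lay at 0.05. LAMA5, an alpha chain of vessels and of the junction, lay at 0.03 by a dim probe set (95% interval -0.32 to 0.37). LAMA3 and LAMB3, chains of the laminin under epithelia, lay at 0.08 and 0.28. LAMA1, an early embryonic alpha chain, lay at -0.04. LAMC3 lay at -0.06 and LAMB4 at -0.01. None of these passed.

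Among the integrin beta chains, ITGB1, the partner of most alpha chains and the beta chain of the muscle laminin receptor, had the lowest difference. It had log2 intensities of 10.69, 10.26 and 10.74 in SA, against 11.32, 11.20, 11.12 and 10.95 in NI. All SA birds were below all NI birds, with 10.56 ± 0.26 (SD, n = 3) in SA and 11.15 ± 0.16 (SD, n = 4) in NI. The difference was -0.58 (standard error 0.15, 95% interval -0.92 to -0.25) and did not pass after adjustment over all probe sets (limma adjusted p = 0.159). The exact two-sided permutation test gave p = 0.0286 for ITGB1, the smallest p this design allows. The limma adjusted p of ITGB1 stayed between 0.127 and 0.402 over the 18 other settings that kept its brightest probe set or averaged its probe sets. The other probe set of ITGB1 lay at -0.05 (limma adjusted p = 0.953).

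ITGB3, the beta chain of platelet and thrombocyte receptors and a partner of ITGAV, had the highest difference of the integrins. Its SA birds had almost the same log2 intensity, at 11.52, 11.54 and 11.55, against 11.54, 10.92, 11.45 and 10.79 in NI birds. NI birds 1 and 3 were close to the SA birds and NI birds 2 and 4 were lower, so the groups overlapped. The difference was 0.36 (standard error 0.19, limma adjusted p = 0.579), and its dimmer probe sets lay at -0.07 and 0.04. ITGB5 and ITGB6, also partners of ITGAV, lay at -0.25 and 0.17, but the dimmer probe set of ITGB6 lay at -0.36. ITGB4, which pairs with ITGA6 in the anchoring plaques of epithelia, lay at 0.16 by its brightest probe set and at -0.07, -0.44 and -0.22 by the others. ITGB2, the beta chain of leukocytes, lay at -0.14. None of these passed the test.

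The integrin alpha chains ITGA7, ITGA6 and ITGA3, which bind laminin, had differences near 0 by their brightest probe sets, and none passed. ITGA7, the alpha chain of the muscle laminin receptor, had 9.30, 9.16 and 9.13 in SA, against 9.004, 9.17, 9.18 and 9.36 in NI. The groups overlapped throughout, and the difference was 0.02 with a standard error of 0.12 (adjusted p = 0.984 by limma). The 95% interval of this difference was -0.25 to 0.29, and it holds for the intensity of this probe only. The dimmer probe set of LAMB1 had a similar interval, -0.31 to 0.29, although the brightest one of LAMB1 lay at -0.96. The dimmer probe set of ITGA7 lay at 0.00. ITGA6 lay at 0.06 and ITGA3 at 0.09, with 95% intervals of -0.21 to 0.32 and -0.28 to 0.47, but the dimmer probe set of ITGA6 lay at -0.38.

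Of the alpha chains that bind collagen, ITGA1 and ITGA11 differed widely between birds of the same group. ITGA1 had 9.68, 10.61 and 11.30 in SA, against 10.67, 9.99, 11.64 and 10.85 in NI. Bird 3 was the highest in each group and the ranges overlapped, with a spread within groups above that of 99% of all probe sets. The SA minus NI difference of ITGA1 was -0.26 (standard error 0.42, 95% interval -1.21 to 0.69). ITGA11 had 9.53, 8.73 and 8.75 in SA, against 8.26, 9.72, 8.83 and 10.06 in NI, with NI birds 2 and 4 highest and NI bird 1 lowest, and its spread was above that of 98.8% of probe sets. Its difference was -0.21 (standard error 0.40), and its dimmer probe sets lay at -0.48 and -0.31, the last with every SA bird below every NI bird (limma adjusted p = 0.41). ITGA2 lay at -0.18.

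The alpha chains that bind fibronectin, vitronectin, tenascin or VCAM1 did not pass either. ITGA4 had the lowest difference of them, -0.21 (standard error 0.12, limma adjusted p = 0.617), and its dimmer probe set lay at 0.21. ITGAV lay at -0.05 (95% interval -0.36 to 0.26), ITGA9 at -0.07 and ITGA8 at 0.01. The dimmer probe sets of ITGA9 and ITGA8 lay at 0.18 and -0.12. The 3 genes named for binding an integrin were ITGB1BP1, which binds the tail of ITGB1 (-0.11), ITGB1BP3, a kinase of nicotinamide riboside found in muscle and now called NMRK2 (0.06), and ITGB3BP, a protein of the centromere (0.02). None of these passed.

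Where a member had several probe sets, these often differed in sign. Of the 21 members with at least 2 probe sets, the brightest and the next brightest had the same sign in 10 (47.6%), beside 52.6% of the 7096 such genes on the whole array. The median gap between them was 0.27 log2 units in members and 0.19 over all those genes. Of the 120 such genes called by their brightest probe set, 70 had a next brightest one of the same sign and 12 had one called in the same direction.

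**Figure D3:**
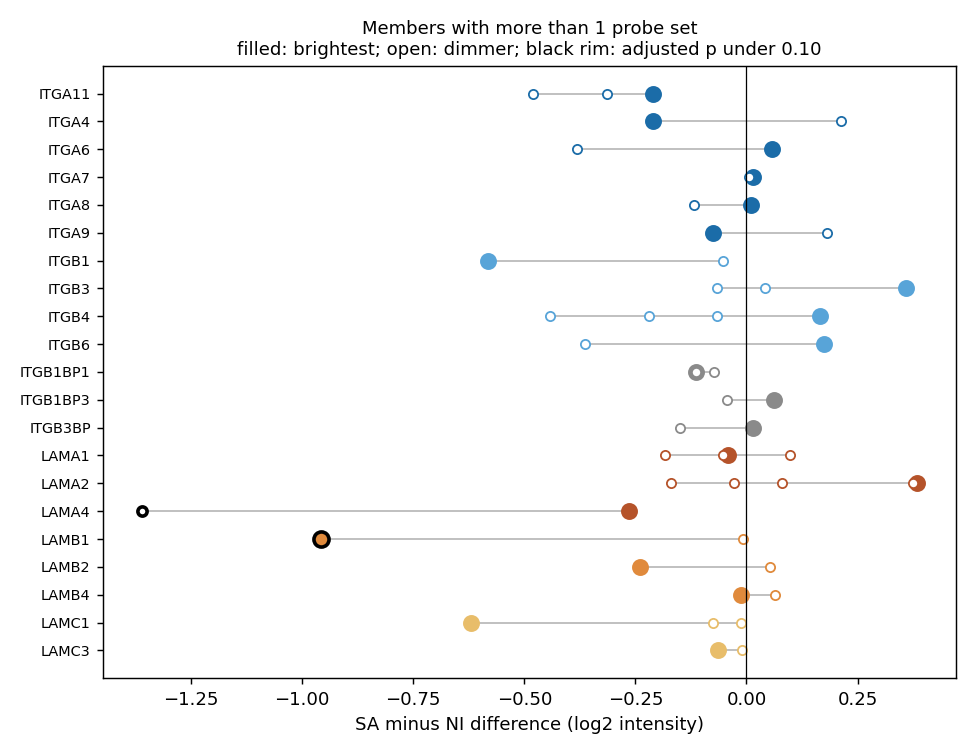
SA minus NI difference in log2 intensity (x axis) of every probe set of the 21 members with more than 1, joined by a line for each gene. Filled points are the brightest probe sets, open points the dimmer ones, and black rims mark an adjusted p under 0.10, reached by the brightest of LAMB1 (-0.96) and the dimmer of LAMA4 (-1.36).

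Of 31 measured integrin ligands, the matrix and surface proteins that integrins bind, 4 were called lower in SA and none higher, beside 0.967% lower and 0.58% higher over all genes. This list and those below were chosen with earlier results of these data known, and none was tested against the array. Their counts beside the shares over all genes are therefore a description only. The 4 called ligands were COL6A3 (-2.66), COL1A1 (-2.43), FN1 (-1.19) and COL1A2 (-0.95), with limma adjusted p = 0.0245, 0.0628, 0.0229 and 0.0198. Each call rests on the brightest probe set of its gene, and values of any other probe sets of these genes are not given here. FN1, the fibronectin bound by several of the integrins above, had 10.10, 10.11 and 10.53 in SA, against 11.71, 11.31, 11.24 and 11.50 in NI. COL6A3, which joins the basement membrane to the matrix outside it, had 8.41, 7.95 and 9.50 in SA, against 11.94, 11.19, 11.28 and 10.73 in NI. In both the groups lay well apart, and in COL6A3, as in LAMB1, SA bird 3 was the highest SA bird and NI bird 4 the lowest NI bird. The other collagen VI chains of the list, COL6A1 and COL6A2, lay at -0.10 and -0.15 (limma adjusted p = 0.926 and 0.871). The median difference of the ligands was -0.07, and 3 to 4 of them were called with 1 bird left out.

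Among 17 other proteins of the basement membrane none passed. PXDN, the peroxidase that links collagen IV chains, lay at -1.20 and COL4A1, a collagen IV chain, at -1.10 (limma adjusted p = 0.201 and 0.223). PXDN had 9.17, 8.53 and 9.11 in SA, against 10.79, 9.94, 10.60 and 9.24 in NI, and its groups did not overlap. COL4A1 had 8.33, 7.81 and 8.49 in SA, against 9.34, 9.42, 10.03 and 8.44 in NI, where NI bird 4 lay below SA bird 3. The other collagen IV chains lay at 0.03 (COL4A2), 0.21 (COL4A3), 0.15 (COL4A4), -0.19 (COL4A5) and 0.01 (COL4A6). HSPG2, the heparan sulfate proteoglycan perlecan, lay at 0.35 with every SA bird above every NI bird, and NTN4 at -0.32 with every SA bird below (limma adjusted p = 0.278 and 0.392). The median of this list was 0.01. Without NI bird 4, 2 genes of the list were called, and the share of all genes called in that fit is not given here.

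Of 17 measured genes of the dystroglycan complex and other laminin receptors none passed, with a median of -0.07 and 12 of negative sign. Dystroglycan itself (DAG1) lay at -0.16 and dystrophin (DMD) at -0.30. The 4 of smallest p were SNTB1, a syntrophin (-0.58), POMT1, an enzyme that starts the sugar chain by which dystroglycan holds laminin (-0.39), and the sarcoglycans SGCB (0.41) and SGCZ (-0.33). Their adjusted p by limma were 0.221, 0.261, 0.443 and 0.621. Of 33 measured partners of integrins inside the cell none passed, with a median of -0.11 and 25 of negative sign, beside 49.4% negative over all genes. ACTN1, the alpha-actinin of adhesion sites, came closest with 11.05, 10.41 and 10.73 in SA, against 11.76, 11.29, 11.44 and 11.69 in NI (-0.81, limma adjusted p = 0.102). The list had 1 call without NI bird 3, without SA bird 1, and under 5 other settings, and 2 with the next brightest probe set of each gene. The shares of all genes called in those fits are not given here. PARVB, a parvin of the complex with integrin-linked kinase, lay at -0.59, XIRP1 at -0.35 and ZYX, which reacts to tension on adhesions, at 0.40 (limma adjusted p = 0.165, 0.374 and 0.327). The mean of the partners was between 9.64 and 9.70 in SA birds and between 9.71 and 9.82 in NI birds, and that of the ligands between 9.40 and 9.67 in SA and between 9.80 and 9.95 in NI.

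**Figure D4:**
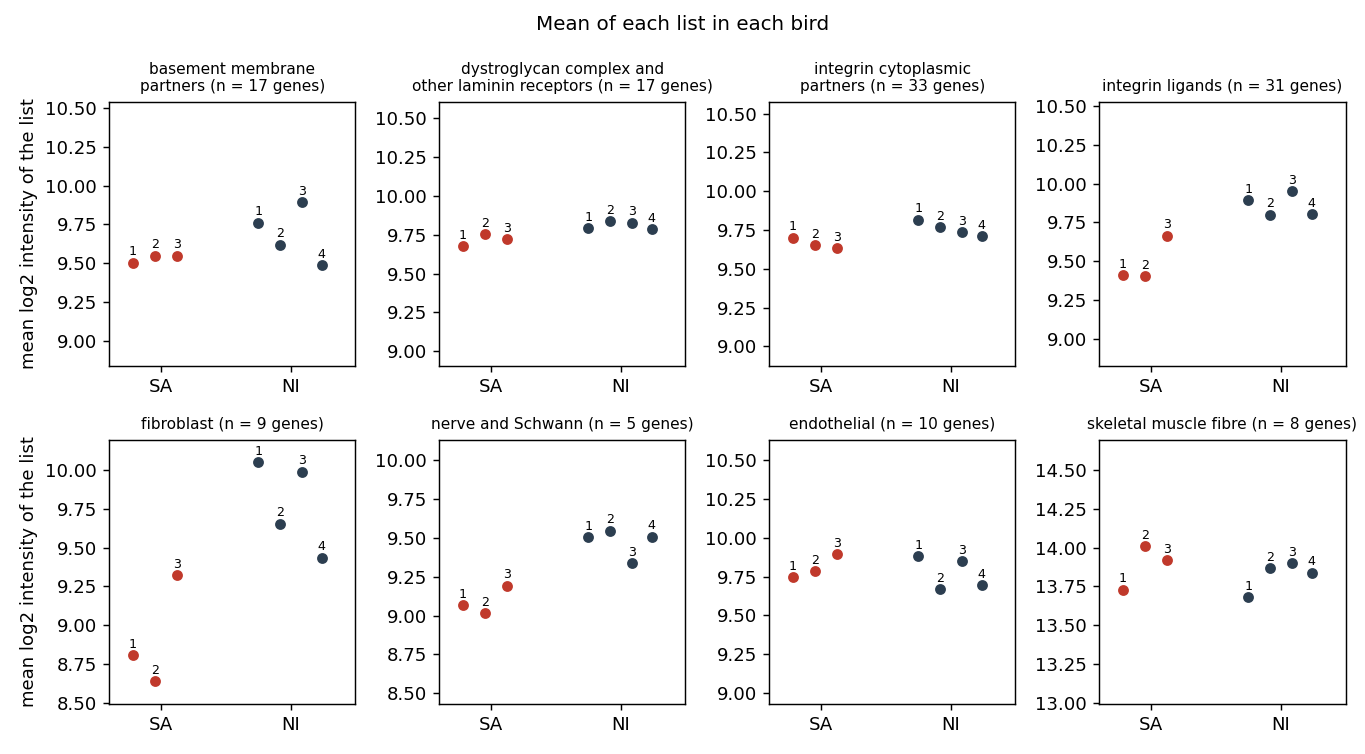
Mean log2 intensity (y axis, all panels of equal height) over the genes of each list in each SA bird (red, left) and NI bird (dark, right), with the number of the bird. The SA birds lie below all NI birds for the integrin ligands, fibroblast markers and nerve markers, and by less for the cytoplasmic partners and the dystroglycan list, whereas the groups overlap for the basement membrane, endothelial and muscle fibre lists.

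Markers of other cells of the biopsy were set beside these values, since laminins and integrins are made by fibroblasts, vessels and nerves as well as by fibres. In RNA from whole biopsies, fewer cells of a type and less RNA per cell cannot be told apart. The mean of 9 fibroblast markers was between 8.64 and 9.32 in SA birds and between 9.44 and 10.05 in NI birds. SA bird 3 was highest in SA and NI bird 4 lowest in NI, as for LAMB1, LAMC1, ITGB1 and the dimmer probe set of LAMA4. The brightest probe sets of LAMA4 and LAMA2 did not have this order. It was noted after the values were seen, and what it reflects was not tested. Of the fibroblast markers 8 had a negative difference, beside 49.4% of all genes. Called lower were 2 (COL1A1 and COL1A2, which are also ligands above), beside 0.967% of all genes. The largest differences were those of COL1A1 (-2.43), COL3A1 (-2.23, also in the list of ligands), DCN (-1.54) and COL1A2 (-0.95). The other fibroblast markers lay closer to 0, with PDGFRB at -0.51, PDGFRA at -0.21, THY1 at -0.08, LUM at -0.07 and TCF21 at 0.28. The mean of 5 nerve and Schwann cell markers was between 9.02 and 9.19 in SA and between 9.34 and 9.55 in NI, with 3 of negative sign. Of these MBP was called lower (-1.24, limma adjusted p = 0.0377). NGFR lay at -0.56 and PMP22 at -0.27, whereas S100B lay at 0.09 and SOX10 at 0.06. The mean of 10 endothelial markers was between 9.75 and 9.89 in SA and between 9.67 and 9.88 in NI, and none was called. Of these 4 had a negative difference, and the values ran from -0.38 (PECAM1) to 0.36 (KDR, every SA bird above every NI bird). In PECAM1 too, SA bird 3 was the highest SA bird and NI bird 4 the lowest NI bird. None of 9 leukocyte, 5 smooth muscle and pericyte, 5 satellite cell and 2 thrombocyte markers was called. The part of these cells in the values of LAMB1, LAMA4 and ITGB1 was not tested.

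Sex was the other property of the birds in the labels. With group as a term, no member was called between the 2 males and the 5 females by limma, nor was any probe set of the array (0% of 36897). A comparison with 2 males is weak, so the absence of calls does not show that the sexes were alike. At an unadjusted p under 0.05 there was 1 member, ITGB6, at a male minus female difference of -0.32 (standard error 0.14). The share of all genes under this cut was not computed, so the count is not a result about the members. Dimmer probe sets of LAMC3 (0.75, standard error 0.18) and ITGB4 (0.45, standard error 0.14) also lay under this cut. ITGA1 and ITGA2 are the members on chromosome Z, of which male birds have a pair and females a single copy, among the 28 found by symbol in the king penguin assembly bAptPat1.pri.cur. ITGA1 lay at 0.59 (standard error 0.45) and ITGA2 at -0.19 (standard error 0.14) between males and females, and each group held 1 male.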

How the data were processed

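RNA of pectoralis biopsies from 7 birds was hybridised to Affymetrix chicken arrays. The authors deposited log2 intensities of 36897 probe sets. For each probe set they had taken a single perfect-match probe, the one ranking highest over all arrays among those above background, and they then brought the arrays to the same quantiles. No background subtraction is described. The number of arrays limits the precision, and the scanner files were not used.

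SA minus NI differences came from limma (version 3.58.1, R 4.3.3; lmFit and eBayes, default prior), fitted to every probe set without a filter. Benjamini-Hochberg adjustment covered all probe sets, at the study's threshold of 0.10. Fits without dim probe sets were adjusted over the probe sets kept, and the fit on the mean of all probe sets of a gene over genes. P-values measure the spread between birds, and the labels do not give capture dates or array batches. The limma fit was tried on simulated data, and the other steps were not. Symbols came from the platform annotation: 26108 probe sets had 1 symbol, 171 several and 10618 none. The brightest probe set stood for its gene. Single values also had exact permutation tests over the birds; an adjustment of these over the members had been planned and is not given.

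The rule for named genes took members past the threshold, members whose groups did not overlap, the chains of the main muscle receptors and laminins, their other probe sets, members on chromosome Z and, in each list, genes past the threshold and up to 4 of smallest p; the remaining members, DAG1 and DMD were added. Members and lists were chosen with earlier results of these data known. Alternatives were other normalizations, filters on dim probe sets, variance priors, array weights, sex, the replicate number, each bird left out, a stricter threshold and other probe sets of a gene.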

Additional observations from a re-analysis of the deposited data

Results flagged for a closer look

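In LAMB2, NI bird 3 had a log2 intensity of 11.16, below the other NI birds at 11.33 to 11.36, and stood apart from them by the criterion of Dixon for 4 samples (gap over range 0.874, critical value 0.829). The NI groups of 30 members were examined, and chance flags about 1 in 20 such groups. The SA group, with 3 birds, was not examined.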

How the results depend on the processing

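LAMB1 was the called member under both other normalizations, both filters on dim probe sets, both other priors and array weights. With sex as a covariate 0 members were called, at an adjusted p under 0.05 also 0, and with 1 bird left out 0 to 1. With the mean of all probe sets of a gene, or its next brightest one, the called member was LAMA4. Linked genes called numbered 4, all integrin ligands, and 7 with array weights, 5 without the dimmest 50% of probe sets and with the mean of all probe sets, 3 at an adjusted p under 0.05, and 3 to 6 with 1 bird left out. Of the cytoplasmic partners, 1 was called without the dimmest 50%, with the robust prior, array weights, the replicate block or the mean of all probe sets, and without NI bird 3 or SA bird 1, and 2 were called with the next brightest probe set. Of the dystroglycan list, 1 was called with array weights. Of the basement membrane list, 1 was called with the mean of all probe sets, 3 with the replicate block and 2 without NI bird 4. The labels do not say that the replicate numbers pair the birds. Deviations of same-numbered birds correlated at 0.29, -0.03 and 0.17. Those of differently numbered birds were not computed, so these values cannot show whether the numbers pair the birds. The fit with the replicate block, without NI bird 4, called 2 members, LAMB1 and LAMC1 (-0.81, limma adjusted p = 0.0491), and 10 linked genes. The shares of all genes called under these other settings are not given here. A higher or lower count under a setting is therefore not a result about the members or the linked genes. The median difference of the laminins was -0.24 without the dimmest 50% of probe sets and lay between -0.13 (without SA bird 1) and 0.029 (without SA bird 3) with 1 bird left out, so its sign was not stable. The number of arrays, not a depth, limits the precision, and no call among the members was kept in every fit.

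Sign changes occurred in 53 of 543 values compared, and 11 of the 30 members had none. The stricter threshold, the filters on dim probe sets and the other priors leave each difference as it was. No sign change could occur under those settings, although their values are among the 543. With array weights, ITGA7 lay at -0.043, ITGB1BP3 at -0.018, ITGB3BP at -0.010 and LAMA5 at -0.0057. With sex, ITGA8 lay at -0.0067. With the replicate block, ITGA11 lay at 0.071 and LAMA1 at 0.011. With the mean of all probe sets, ITGA4 lay at 0.00062, ITGA6 at -0.16, ITGA8 at -0.053, ITGA9 at 0.053, ITGB3BP at -0.067, ITGB4 at -0.14, ITGB6 at -0.095 and LAMB4 at 0.026. With the next brightest probe set, ITGA4 lay at 0.21, ITGA6 at -0.38, ITGA8 at -0.12, ITGA9 at 0.18, ITGB1BP3 at -0.043, ITGB3 at -0.067, ITGB3BP at -0.15, ITGB4 at -0.067, ITGB6 at -0.36, LAMB2 at 0.054 and LAMB4 at 0.064. With 1 bird left out, the ranges were -0.64 to 0.17 for ITGA1, -0.53 to 0.071 for ITGA11, -0.080 to 0.27 for ITGA3, -0.012 to 0.11 for ITGA6, -0.043 to 0.076 for ITGA7, -0.069 to 0.061 for ITGA8, -0.13 to 0.012 for ITGA9, -0.15 to 0.021 for ITGAV, -0.0071 to 0.18 for ITGB1BP3, -0.058 to 0.11 for ITGB3BP, -0.11 to 0.026 for LAMA1, -0.15 to 0.13 for LAMA5, -0.13 to 0.074 for LAMB4 and -0.14 to 0.046 for LAMC3. The causes were not tested.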
